A study of Homo sapiens with 6 samples.

Results

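Interferon-stimulated genes were read in LN229 cells, an established human glioblastoma line from grade IV glioma, after exposure to ursodeoxycholic acid (UDCA), a hydrophilic bile acid given to patients with cholestasis. The set is a list of 47 genes named by symbol, and all 47 have a row among the 33890 genes of the deposited table. The UDCA group holds 3 libraries of cells kept in 800 µM UDCA for 48 h, and the control group holds 3 libraries of the same line without UDCA. Both were grown in the same serum-containing medium, and no interferon or virus is named in the labels. Levels were read as FPKM, reads scaled by exon length and library total. The length is that of all annotated exons of a gene merged, so levels of different genes compare only roughly.

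Interferons are secreted proteins that cells release on sensing viral nucleic acid. They bind receptors whose kinases, JAK1, TYK2 and JAK2, activate STAT proteins. STAT proteins, STAT2 among them, join IRF9 to form the factor ISGF3, which binds the interferon-stimulated response element, while STAT dimers bind the gamma-activated site. The target genes encode sensors, transcription factors, antiviral effectors and brakes, and many of them have a basal level without added interferon.

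The recovered depth was 15988951 to 17045218 reads in the UDCA libraries and 16639832 to 17743022 in the control libraries. Mitochondrially encoded genes took 0.0263% to 0.0271% of reads in the UDCA libraries, against 3.13% to 3.16% in the control libraries. The part of this difference in the results was not tested beyond scaling to totals without those genes. That scaling left 33 of the 36 tested members called, beside 11590 of all 14380 genes tested. UDCA replicate 3 differed most from its group. VIM, NES, CD44 and S100A10, markers of the line, were at 26.7 FPKM or more in every library, while the astrocyte marker GFAP stayed under 1 FPKM in every library. VIM averaged 65.1 ± 0.801 FPKM with UDCA and 167 ± 1.83 FPKM in control, and NES averaged 26.9 ± 0.280 and 148 ± 4.39 FPKM (SD, n = 3 each). CD44 and S100A10 fell 1.48-fold and 1.25-fold, and OLIG2 was at 4.81 ± 0.160 FPKM with UDCA and 4.59 ± 0.509 FPKM in control (limma, adjusted p = 0.467). Summed over 6 leukocyte markers the level was 0.0273 to 0.164 FPKM in the UDCA libraries, against 0.167 to 0.298 FPKM in the control libraries, and CD3E was listed at 0 in each UDCA library. The summed level of 4 endothelial markers was 0.585 to 0.682 FPKM with UDCA and 0.272 to 0.326 FPKM in control, with VWF alone at 0.608 and 0.204 FPKM on average, PECAM1 on 4 reads with UDCA and 11 in control, KDR on 1 and 20 reads, and CDH5 on 1 read. That of 4 epithelial markers was at most 0.218 FPKM in any library. These are bulk samples, in which fewer cells of a kind and less RNA per cell cannot be told apart.

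The interferon-stimulated genes moved in both directions, as did the tested genes as a whole. Of 47 members, 36 reached 1 FPKM in 3 or more of the 6 libraries and were tested with limma on log2(FPKM + 1). Of those, 22 were higher and 14 lower with UDCA at an adjusted p under 0.05. Across all 14380 genes tested, 80.8% were called, 45.1% higher and 35.7% lower, or 6491 and 5133 of 11624 calls. Every tested member was called, 61.1% higher and 38.9% lower. A split of calls in both directions is thus not particular to the members. IFIT1, IFITM1, ISG20 and HERC6 reached 1 FPKM in 1 group only, so that their passing the filter was tied to a difference. The median change of the tested members was 0.26 on the log2 scale, against 0.10 for all genes tested. Of the 36 tested members, 8 rose and 6 fell by at least 1 on the log2 scale, against 12.3% and 12.0% of all genes tested. IFIT1 and IFITM1, among those 6, passed the filter through the control libraries only. Separate cultures are not named in the labels, and each p-value therefore covers the spread among these 6 libraries alone, which may be technical.

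**Figure D1:**
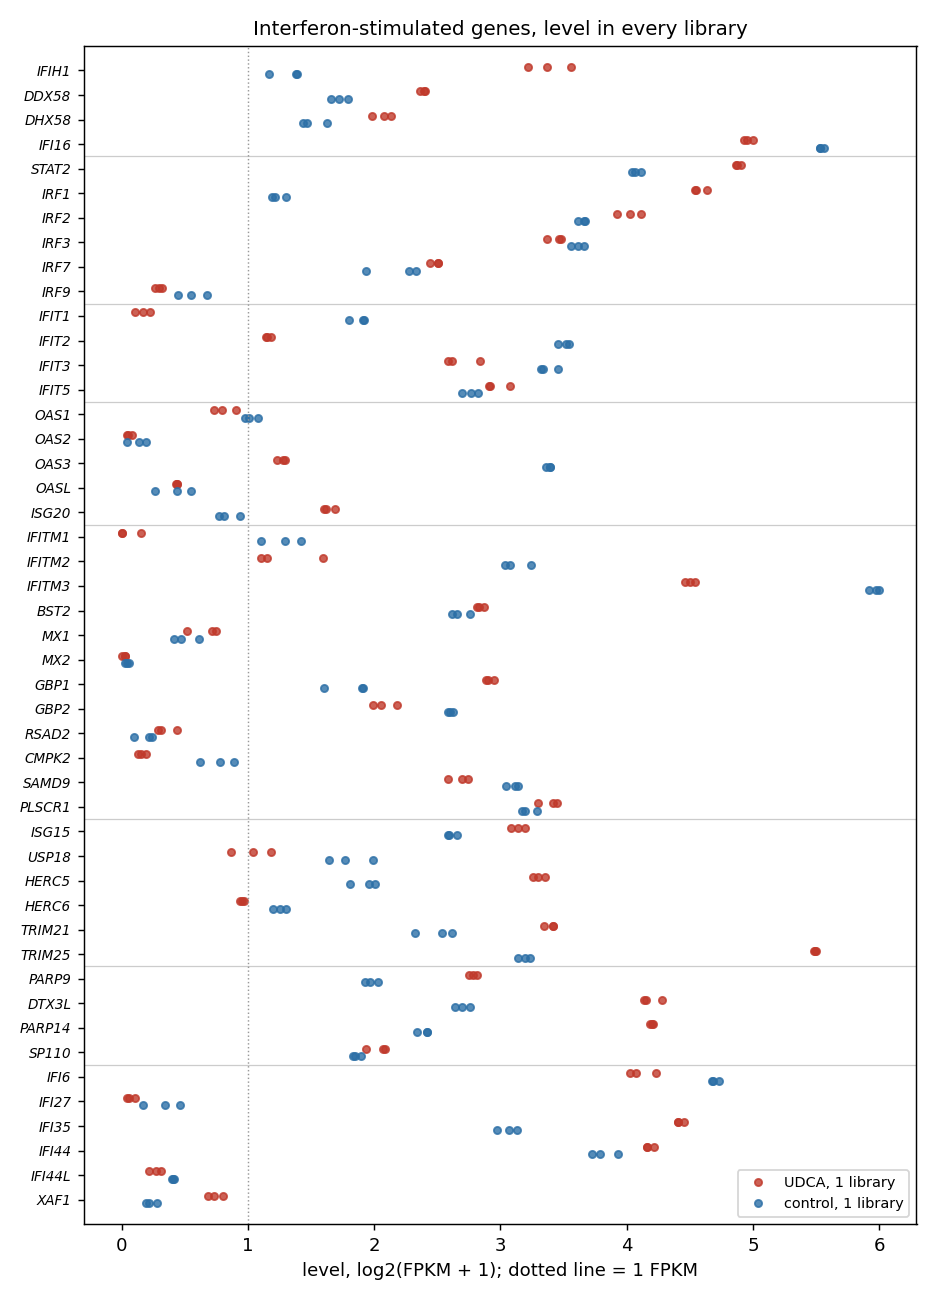
Level of each of the 47 members in every library, as log2(FPKM + 1) on the horizontal axis, with genes down the page in blocks by role; each point is 1 library, and the dotted line marks 1 FPKM. The largest gaps to the right are those of IRF1, TRIM25 and IFIH1 with UDCA, and the largest to the left are those of IFIT2, OAS3 and IFITM2.

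The order of levels changed with treatment. In the UDCA libraries the highest members were TRIM25 (44.0 FPKM), IFI16 (30.1 FPKM), STAT2 (28.5 FPKM), IRF1 (22.8 FPKM) and IFITM3 (21.7 FPKM). In the control libraries they were IFITM3 (61.4 FPKM), IFI16 (45.5 FPKM), IFI6 (24.9 FPKM), STAT2 (15.8 FPKM) and IFI44 (13.1 FPKM). Within each of these runs of 5 only IRF1 and IFITM3 in the UDCA libraries overlapped. Summed over the 47 members, the level was 370 to 375 FPKM with UDCA and 318 to 325 FPKM in control. The summed level of the ISG15 and ligase genes was 72.2 ± 0.517 FPKM with UDCA and 24.6 ± 0.383 FPKM in control, while that of the IFIT family was 13.6 ± 0.614 FPKM with UDCA and 28.2 ± 0.899 FPKM in control.

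The promoters of the 2 members with the largest rise and the 2 with the largest fall are shown as examples of the windows searched for motifs. Members were ranked by change of log2(FPKM + 1) among those that have an entry. The windows run from 250 bases before to 50 after the gene start (RefSeq, GRCh38.p14), 5′ to 3′ on the gene's own strand. Capitals mark matches on either strand to 3 patterns. The first is GAAA and GAAA with any 2 bases between them (the core of the interferon-stimulated response element). The second is TTCNNNGAA (the gamma-activated site). The third is GGGA and TTCC with any 2 bases between them (1 form of NF-kappaB site). Other forms of these sites were not searched. IRF1 (chr5:132490724-132491023, minus strand) holds 1 gamma-activated site and no match to the other 2 patterns. TRIM25 (chr17:56914000-56914299, minus strand) holds none of the 3. OAS3 (chr12:112938224-112938523, plus strand) holds the response element core at 2 places and, between them, an NF-kappaB match that reads on both strands and overlaps itself. IFIT1 (chr10:89392373-89392672, plus strand) holds the response element core at 2 places. By ratio of means IFIH1, not shown, rose more than TRIM25 (6.35-fold against 5.41-fold). The IFIH1 promoter holds the response element core at 3 places and 1 NF-kappaB match. IFITM1, on 2 reads in all UDCA libraries, fell more than OAS3 by ratio (38.3 against 6.70). The IFITM1 promoter holds the response element core at 2 places and 1 gamma-activated site.
IRF1: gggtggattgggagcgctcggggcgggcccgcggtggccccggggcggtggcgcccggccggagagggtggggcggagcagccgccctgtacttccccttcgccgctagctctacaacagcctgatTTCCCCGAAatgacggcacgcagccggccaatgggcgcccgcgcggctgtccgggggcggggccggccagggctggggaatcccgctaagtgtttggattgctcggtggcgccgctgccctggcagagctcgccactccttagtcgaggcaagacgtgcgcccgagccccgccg
TRIM25: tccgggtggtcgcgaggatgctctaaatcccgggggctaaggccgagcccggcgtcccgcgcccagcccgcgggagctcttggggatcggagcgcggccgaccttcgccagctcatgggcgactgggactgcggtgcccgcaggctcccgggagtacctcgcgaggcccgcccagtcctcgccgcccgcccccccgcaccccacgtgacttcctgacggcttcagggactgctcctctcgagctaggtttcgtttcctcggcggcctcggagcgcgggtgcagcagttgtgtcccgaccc
OAS3: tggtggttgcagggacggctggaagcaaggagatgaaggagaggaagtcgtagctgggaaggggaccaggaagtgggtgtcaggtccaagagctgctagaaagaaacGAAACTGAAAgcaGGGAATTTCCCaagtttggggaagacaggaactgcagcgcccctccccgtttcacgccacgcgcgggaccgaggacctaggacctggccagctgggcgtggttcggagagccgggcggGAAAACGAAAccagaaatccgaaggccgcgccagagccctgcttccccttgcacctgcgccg
IFIT1: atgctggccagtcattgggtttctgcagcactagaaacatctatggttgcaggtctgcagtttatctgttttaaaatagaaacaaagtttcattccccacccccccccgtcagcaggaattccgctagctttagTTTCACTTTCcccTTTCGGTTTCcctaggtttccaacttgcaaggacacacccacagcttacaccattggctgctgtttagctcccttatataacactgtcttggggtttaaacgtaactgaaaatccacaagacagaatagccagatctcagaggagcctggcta

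Of the 47 members, 35 had a promoter entry; DDX58, DHX58, IRF2, IRF3, IRF7, IFIT2, OAS2, OASL, IFITM2, MX2, GBP2 and USP18 had none. The response element core was in 22 of the 35, against 3.57% of 35116 promoters of the same length. By direction it was in 12 of 18 members that rose, in 7 of 9 that fell and in 3 of 8 that were not tested. So members that rose and members that fell both carried it. The gamma-activated site was in 5 of 18 that rose, 1 of 9 that fell and 3 of 8 not tested (7.66% of all promoters). The searched form of the NF-kappaB motif was in IFIH1 and OAS3 (1.61% of all promoters). A match is a description of letters in this window and not a bound site.

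Among the transcription factors, IRF1 rose furthest of the tested members on the log2 scale. IRF1, an interferon and NF-kappaB responsive activator (ENSG00000125347, chromosome 5, 132481609 to 132490798, GRCh38), had 22.3, 22.5 and 23.8 FPKM in the UDCA libraries, against 1.28, 1.32 and 1.46 FPKM in the control libraries. The 3 UDCA values lay close together and far above every control value. The ratio of means was 16.9 and the log2 change 3.34 ± 0.05 (SE; limma, adjusted p = 5.04e-09). Of its exon bases 22.0% lie in exons of genes on the other strand. One of those, C5orf56, was at 3.59 to 4.05 FPKM with UDCA and 0.377 to 0.494 FPKM in control, and reads of the shared stretch cannot be assigned without strand.

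STAT2, a subunit of ISGF3, had 28.1, 28.9 and 28.4 FPKM with UDCA, against 15.5, 16.3 and 15.8 FPKM in control, a 1.80-fold rise (limma, adjusted p = 2.73e-07). IRF2, a relative of IRF1 that can oppose it, rose 1.32-fold to 15.3 ± 1.04 FPKM with UDCA, against 11.5 ± 0.259 FPKM in control. IRF3, the factor that sensors activate to start interferon transcription, was slightly lower at 9.84 ± 0.426 FPKM with UDCA, against 11.2 ± 0.440 FPKM in control (adjusted p = 0.00832). Its exons share 19.4% of their bases with BCL2L12, which itself was at 5.77 to 6.41 FPKM with UDCA and 12.9 to 15.3 FPKM in control. IRF7, the amplifier of interferon alpha production, was called higher at 4.61 ± 0.141 FPKM with UDCA, against 3.57 ± 0.644 FPKM in control (adjusted p = 0.0304), with control replicate 3 the lowest at 2.83 FPKM. That call was lost in 5 of 13 alternatives, among them leaving out UDCA replicate 1 (adjusted p = 0.0772), 2 (0.0542) or 3 (0.0753).

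IRF9, the DNA-binding subunit of ISGF3, was under the filter and not tested, at 0.231, 0.247 and 0.202 FPKM with UDCA, against 0.364, 0.598 and 0.461 FPKM in control. Exons of a readthrough gene, AL136295.5, cover 48.4% of its exon bases, so its level is uncertain.

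Of the 4 members listed as sensors, the 3 of RNA rose and IFI16, of DNA, fell. Of all genes tested, 45.1% were higher and 35.7% lower. The IFIT genes, whose proteins also bind RNA, are given separately below and mostly fell. IFIH1, which encodes MDA5, the cytosolic sensor of long duplex RNA (ENSG00000115267, chromosome 2, 162267079 to 162318703), had 9.33, 10.8 and 8.29 FPKM in the UDCA libraries, against 1.25, 1.60 and 1.62 FPKM in the control libraries. The UDCA values spread more than those of most members, yet the lowest stood far above the highest control value, and the rise was 6.35-fold (limma, adjusted p = 1.75e-06). DDX58, which encodes RIG-I, the sensor of RNA ends, rose 1.84-fold to 4.24 ± 0.0738 FPKM with UDCA, against 2.30 ± 0.154 FPKM in control. DHX58, which encodes LGP2, a helper of MDA5 that lacks signalling domains, rose 1.72-fold to 3.19 ± 0.215 FPKM with UDCA, against 1.85 ± 0.207 FPKM in control. IFI16, a nuclear sensor of DNA, had 30.9, 30.0 and 29.4 FPKM with UDCA, against 46.2, 45.2 and 45.2 FPKM in control, a log2 change of -0.58 ± 0.03 (adjusted p = 9.65e-07).

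**Figure D2:**
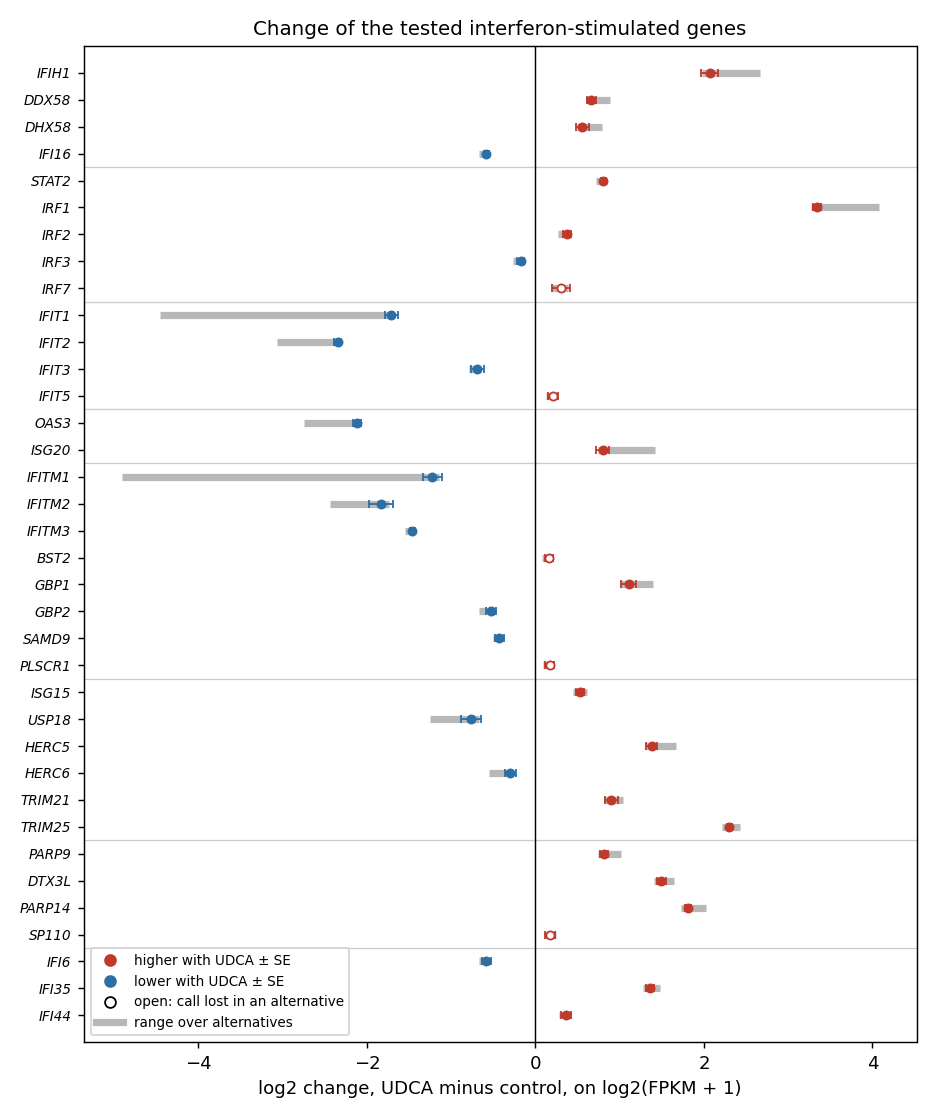
Log2 change (UDCA minus control, on log2(FPKM + 1)) of the 36 tested members with its SE, in blocks by role; grey bars give the lowest and highest value over 13 alternatives, which include a smaller pseudocount and a fit on recovered reads, and open points lost their call in at least 1 of them. IRF1 stands at 3.34 and IFIT2 at -2.35, and 31 members are drawn as filled points.

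The IFIT genes, whose proteins bind RNA ends and block translation of foreign messages, mostly fell. IFIT2 (ENSG00000119922, chromosome 10, 89283694 to 89309276) had 1.22, 1.27 and 1.21 FPKM in the UDCA libraries, against 10.7, 10.5 and 9.99 FPKM in the control libraries. Of its exon bases 10.3% lie in other genes, among them LIPA, which was at 20.9 to 22.1 FPKM with UDCA and 47.3 to 47.7 FPKM in control. The groups of IFIT2 values did not overlap, with a log2 change of -2.35 ± 0.05 (limma, adjusted p = 1.89e-08). IFIT1 had 0.122, 0.0763 and 0.166 FPKM with UDCA, against 2.48, 2.76 and 2.79 FPKM in control, on 28 reads in all UDCA libraries and 637 in all control libraries. Its log2 change of -1.71 moved to -4.45 with voom on the recovered reads, which has no such pseudocount. IFIT3 fell 1.72-fold to 5.43 ± 0.631 FPKM with UDCA, against 9.34 ± 0.528 FPKM in control. IFIT5, the fourth gene of the cluster, was called higher at 6.84 ± 0.529 FPKM with UDCA, against 5.79 ± 0.287 FPKM in control (adjusted p = 0.0165). It missed the threshold without control replicate 3 (adjusted p = 0.0557), with quantile normalization (0.0599) and with median-ratio scaling (0.0832).

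In the oligoadenylate synthetase family, which makes the messenger that activates RNase L, only OAS3 was expressed well enough to be tested. OAS3 (ENSG00000111331, chromosome 12, 112938352 to 112973249) had 1.43, 1.34 and 1.46 FPKM in the UDCA libraries, against 9.29, 9.49 and 9.52 FPKM in the control libraries. Every UDCA library was far below every control library, a 6.70-fold difference (adjusted p = 2.43e-08). Its neighbour OAS1 had 0.733, 0.664 and 0.869 FPKM with UDCA, against 1.12, 0.964 and 1.01 FPKM in control. OAS2 was at most 0.144 FPKM in any library. OASL, a family member without synthetase activity, was at 0.353 ± 0.00277 FPKM with UDCA and 0.337 ± 0.132 FPKM in control. ISG20, an RNA exonuclease, went the other way, with 2.03, 2.22 and 2.06 FPKM with UDCA, against 0.914, 0.750 and 0.704 FPKM in control (adjusted p = 4.79e-05).

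**Figure D3:**
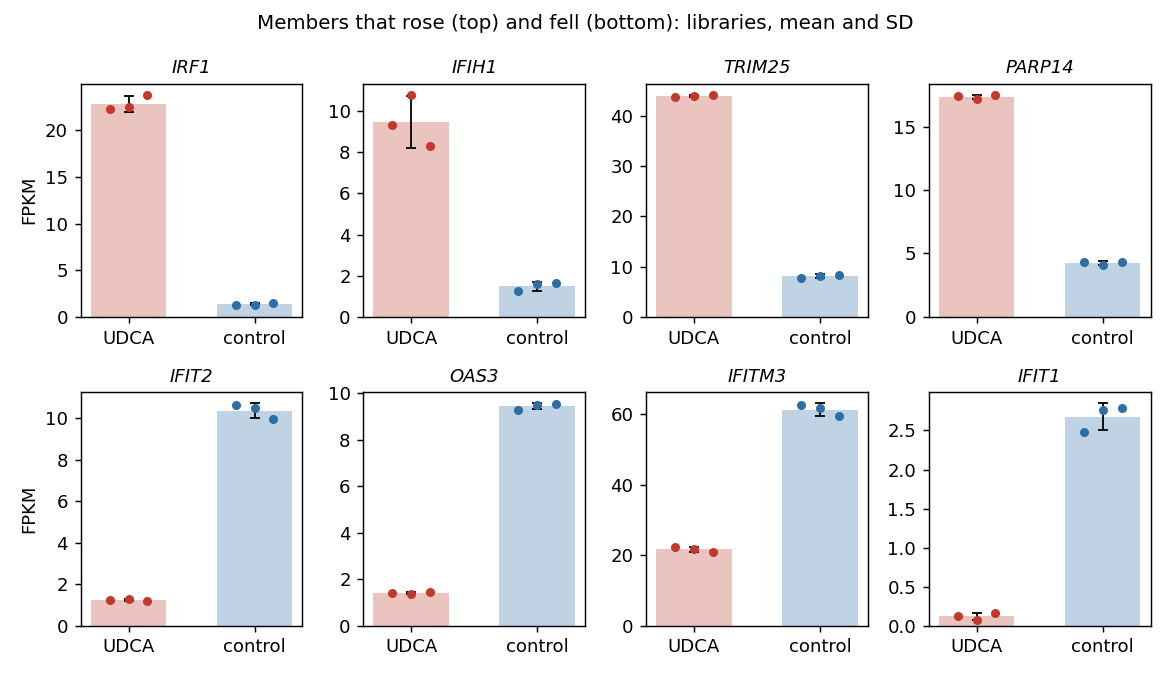
FPKM of 4 members that rose (top row) and 4 that fell (bottom row); points are libraries, bars are means and whiskers SD, n = 3 in each group, with every axis starting at 0. In each panel the points of the UDCA libraries and the control libraries do not overlap, from IRF1 (22.8 against 1.35 FPKM) to IFIT1 (0.121 against 2.67 FPKM).

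The IFITM genes, which encode membrane proteins that hinder viral fusion, fell together. IFITM3 (ENSG00000142089, chromosome 11, 319669 to 327537), the highest member in control, had 22.3, 21.7 and 21.1 FPKM in the UDCA libraries, against 62.8, 61.9 and 59.5 FPKM in the control libraries. The groups were far apart and the fall was 2.83-fold (adjusted p = 3.06e-08). IFITM2 had 2.03, 1.22 and 1.15 FPKM with UDCA, against 7.21, 8.44 and 7.41 FPKM in control. IFITM1 rested on 2 reads in all UDCA libraries and 79 in all control libraries, a ratio of 38.3 with an exact 95% interval of 10.3 to 322 that covers counting error only. These are close paralogs, and 32.5% of the exon bases of IFITM1 lie in exons of IFITM2, so the split of reads between them is uncertain. Exons of other genes also cover 21.3% of the exon bases of IFITM3, 20.9% of those of SP110 and 38.3% of those of XAF1.

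Other effectors at membranes went both ways. GBP1, an interferon-gamma induced GTPase, had 6.46, 6.73 and 6.41 FPKM with UDCA, against 2.76, 2.74 and 2.04 FPKM in control, a 2.60-fold rise (adjusted p = 2.09e-05). GBP2, its neighbour and paralog, fell 1.58-fold to 3.22 ± 0.281 FPKM with UDCA, against 5.09 ± 0.0900 FPKM in control. SAMD9, a restriction factor of poxviruses, fell 1.41-fold to 5.39 ± 0.353 FPKM with UDCA, against 7.59 ± 0.288 FPKM in control. BST2, which encodes the virion tether tetherin, was at 6.14 ± 0.132 FPKM with UDCA and 5.41 ± 0.324 FPKM in control (adjusted p = 0.0198). PLSCR1, a phospholipid scramblase, was at 9.48 ± 0.564 FPKM with UDCA and 8.31 ± 0.414 FPKM in control (adjusted p = 0.0219). The call of BST2 was lost in 7 of 13 alternatives, including without UDCA replicate 2 (adjusted p = 0.0626), control replicate 1 (0.0600) or control replicate 3 (0.0636). That of PLSCR1 was lost in 8, including without UDCA replicate 1 (0.0650) or 2 (0.0704) and without control replicate 1 (0.0652) or 2 (0.0711).

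The dynamin-like GTPases and the viperin locus were barely expressed. MX1 had 0.682, 0.640 and 0.431 FPKM with UDCA, against 0.335, 0.533 and 0.386 FPKM in control, and these ranges overlap. MX2 was at most 0.0432 FPKM in any library. RSAD2, which encodes viperin, had 0.220, 0.243 and 0.353 FPKM with UDCA, against 0.162, 0.180 and 0.0700 FPKM in control. CMPK2, a mitochondrial nucleotide kinase beside it, had 0.145, 0.109 and 0.0959 FPKM with UDCA, against 0.852, 0.716 and 0.537 FPKM in control, on 25 reads in all UDCA libraries and 155 in all control libraries. The pair thus pointed in opposite directions, at levels too low for the test.

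Genes of the ISG15 system, a ubiquitin-like tag with its own ligase and protease, went both ways. ISG15 itself rose 1.53-fold, with 8.18, 7.48 and 7.83 FPKM with UDCA, against 5.30, 5.00 and 5.03 FPKM in control. HERC5, its main ligase in human cells, had 8.82, 9.24 and 8.57 FPKM with UDCA, against 2.50, 3.02 and 2.89 FPKM in control (adjusted p = 1.16e-06). USP18, the protease that removes the tag and also restrains the interferon receptor, fell 2.38-fold to 1.05 ± 0.223 FPKM with UDCA, against 2.50 ± 0.437 FPKM in control. HERC6, a relative of HERC5, fell to 0.938 ± 0.0223 FPKM with UDCA, against 1.38 ± 0.0873 FPKM in control (adjusted p = 0.00510).

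The TRIM ubiquitin ligases both rose. TRIM25, the ligase that assists RIG-I signalling (ENSG00000121060, chromosome 17, 56836387 to 56914080), had 43.8, 43.9 and 44.2 FPKM in the UDCA libraries, against 7.81, 8.18 and 8.41 FPKM in the control libraries. The UDCA libraries differed from one another by less than 1 FPKM, and the rise was 5.41-fold (limma, adjusted p = 3.95e-09). TRIM21, a cytosolic antibody receptor and ligase, had 9.69, 9.15 and 9.68 FPKM with UDCA, against 5.14, 4.01 and 4.79 FPKM in control, a 2.05-fold rise.

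The PARP genes of chromosome 3 rose as a group of neighbours. PARP14, a mono-ADP-ribosyltransferase (ENSG00000173193, chromosome 3, 122680618 to 122730840), had 17.4, 17.2 and 17.5 FPKM with UDCA, against 4.35, 4.06 and 4.33 FPKM in control (adjusted p = 2.09e-08). DTX3L and PARP9 encode a ligase complex and start from a shared promoter region in opposite directions. DTX3L had 18.5, 16.8 and 16.6 FPKM with UDCA, against 5.49, 5.24 and 5.76 FPKM in control. PARP9 rose 2.01-fold to 5.89 ± 0.160 FPKM with UDCA, against 2.93 ± 0.147 FPKM in control, a smaller step than the 3.15-fold of DTX3L. SP110, a nuclear body protein, was called at 3.10 ± 0.230 FPKM with UDCA, against 2.62 ± 0.0849 FPKM in control (adjusted p = 0.0310). SP110 missed the threshold in 8 of 13 alternatives, including without UDCA replicate 2 (adjusted p = 0.0983) or 3 (0.0869) and without control replicate 1 (0.0769) or 3 (0.0839).

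Of the remaining IFI genes, IFI35 rose, with 21.0, 20.2 and 20.2 FPKM with UDCA, against 7.37, 6.84 and 7.77 FPKM in control (adjusted p = 2.63e-07). IFI44 rose 1.31-fold to 17.1 ± 0.435 FPKM with UDCA, against 13.1 ± 1.06 FPKM in control. IFI6, a mitochondrial and ER protein that opposes cell death, fell, with 15.8, 15.3 and 17.8 FPKM with UDCA, against 24.7, 25.6 and 24.6 FPKM in control (adjusted p = 5.24e-05). IFI44L was at 0.202 ± 0.0411 FPKM with UDCA and 0.326 ± 0.00562 FPKM in control, below the filter. IFI27, often among the most induced genes after interferon, was on 10 reads in all UDCA libraries and 54 in all control libraries. XAF1, which opposes the apoptosis inhibitor XIAP, had 0.662, 0.745 and 0.606 FPKM with UDCA, against 0.164, 0.211 and 0.145 FPKM in control. Of the 11 members not tested, the groups did not overlap in 7, with UDCA above in 2 (RSAD2 and XAF1) and below in 5 (IRF9, OAS1, CMPK2, IFI27 and IFI44L). Of the 19510 genes under the filter, the groups did not overlap in 26.8%, with UDCA above in 13.1% and below in 13.7%. Tested without the filter, 38 of the 47 members were called, beside 42.6% of all 33890 genes. In each of the 36 tested members the groups did not overlap, as in 82.8% of all genes tested.

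**Figure D4:**
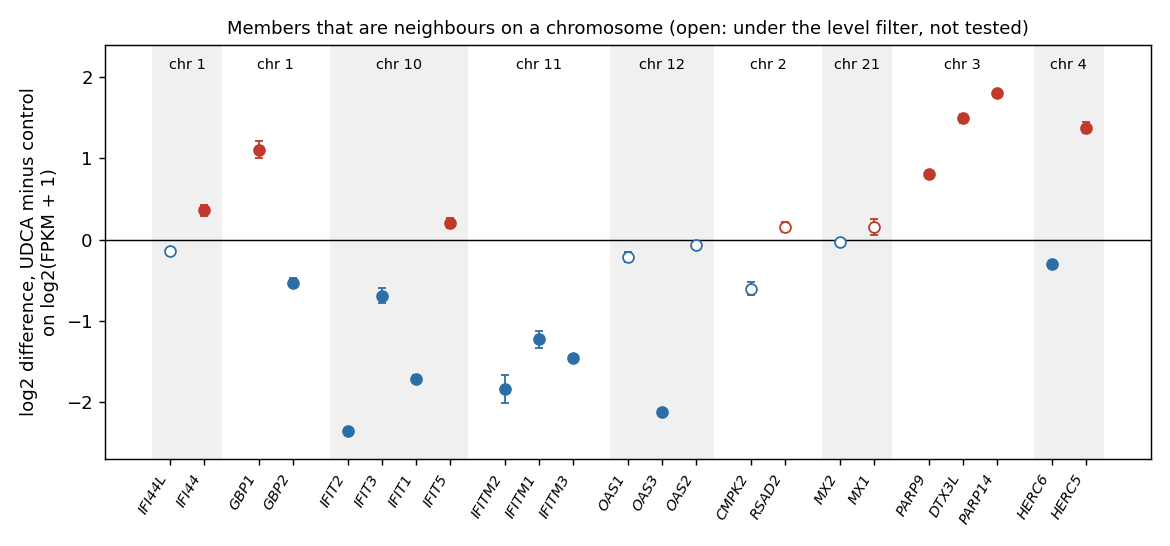
Difference of mean log2(FPKM + 1), UDCA minus control, for the 23 members that have another member within 200 kb, in order along each chromosome; whiskers are the standard error of the difference from the SD of 3 libraries in each group, and open points were under the level filter. The IFIT, GBP and HERC runs hold filled points on both sides of 0. With open points included, so do the runs of IFI44L with IFI44, CMPK2 with RSAD2, and MX2 with MX1. The IFITM genes all lie below 0, and the PARP9, DTX3L and PARP14 run lies above it.

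Neighbours on a chromosome did not always share a direction. With members linked when less than 200 kb apart, 23 fell into 9 runs, and 3 runs held tested members called in both directions. The runs of IFI44L with IFI44, the OAS genes, CMPK2 with RSAD2, and MX2 with MX1 held too few tested members to show both. In the remaining runs the IFITM genes were all lower, and PARP9, DTX3L and PARP14 all higher. The runs with both directions were IFIT2, IFIT3 and IFIT1 (lower) with IFIT5 (higher), GBP2 (lower) with GBP1 (higher), and HERC6 (lower) with HERC5 (higher). The call of IFIT5 was among those lost in alternatives, as given above. HERC6, the only lower member of its run, and IFIT1 reached 1 FPKM in control libraries only. Their passing the filter was therefore tied to a difference.

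A further list of 88 interferon pathway genes, from ligands and receptors to other induced genes, had 71 with a row in the table and 51 tested. Of these 36 were higher, 12 lower and 3 did not pass, beside 45.1% higher and 35.7% lower of all genes tested. Other interferon-induced genes made up 25 of the 51 tested and 22 of the 36 higher. The median of all 51 changes was 0.47 (log2). Among interferon genes themselves, 7 of 21 had a row and the others were not analysed here. IFNE, an interferon of epithelia, fell to 1.03 ± 0.308 FPKM with UDCA, against 2.84 ± 0.128 FPKM in control (adjusted p = 0.000261). IFNB1, the gene of interferon beta, singled out after its values were seen, had 0.437, 0.341 and 0.549 FPKM with UDCA and was listed at 0 in each control library. That is 19 reads against 0, at least 6.53-fold higher against a floor of 3 reads over the control group, below the level filter. No other interferon gene with a row exceeded 0.337 FPKM in any library.

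Of 3 receptor genes tested, 2 were higher and 1 lower, beside 45.1% and 35.7% of all genes tested. IFNGR1, the ligand-binding chain of the interferon gamma receptor, rose 2.39-fold to 13.7 ± 0.470 FPKM with UDCA, against 5.73 ± 0.177 FPKM in control. IFNGR2 rose 1.11-fold to 22.5 ± 0.930 FPKM with UDCA, against 20.2 ± 0.0101 FPKM in control (adjusted p = 0.00501), a call lost under median-ratio scaling (adjusted p = 0.123). IFNAR1, a chain of the type I receptor, fell 1.30-fold to 12.3 ± 0.288 FPKM with UDCA, against 16.0 ± 0.320 FPKM in control. The receptor kinase genes rose, JAK2 2.65-fold, JAK1 1.94-fold and TYK2 1.42-fold, and so did STAT3, a signal transducer of many cytokine receptors, 1.31-fold.

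Of 8 negative regulators tested, 2 were higher and 5 lower, beside 45.1% and 35.7% of all genes tested. SOCS3, a feedback inhibitor of cytokine receptors, fell 2.19-fold to 13.3 ± 0.623 FPKM with UDCA, against 29.1 ± 0.934 FPKM in control. PIAS4, a SUMO ligase that restrains STAT proteins, rose 1.83-fold, while its relative PIAS2 fell 1.55-fold and the phosphatase gene PTPN1 fell 1.46-fold. PTPN11 did not pass, at 42.8 ± 0.201 FPKM with UDCA and 41.5 ± 0.343 FPKM in control (adjusted p = 0.0683).

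Of 9 sensing adaptor genes tested, 5 were higher and 4 lower, beside 45.1% and 35.7% of all genes tested. IRF5, a factor downstream of Toll-like receptors, rose 20.6-fold to 4.77 ± 0.318 FPKM with UDCA, against 0.231 ± 0.0278 FPKM in control, and it passed the level filter through the UDCA libraries only. TLR3, the endosomal sensor of duplex RNA, rose 4.78-fold to 5.44 ± 0.295 FPKM with UDCA, against 1.14 ± 0.0822 FPKM in control. In the other direction, TMEM173, which encodes the DNA-pathway adaptor STING, fell 4.53-fold to 1.53 ± 0.147 FPKM with UDCA, against 6.95 ± 0.821 FPKM in control. MYD88, the adaptor of most Toll-like receptors, fell 3.72-fold to 2.66 ± 0.357 FPKM with UDCA, against 9.90 ± 0.580 FPKM in control.

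Of 25 tested interferon-induced genes outside the 47, 22 were higher, 1 lower (ZC3HAV1) and 2 not past the threshold (TRIM5 and TRIM14), beside 45.1% higher and 35.7% lower of all genes tested. ZC3HAV1 lost its call with the replicate block (adjusted p = 0.0712) and without UDCA replicate 3 (0.0808), control replicate 1 (0.0782) or control replicate 3 (0.0958). BATF2, among the 22, lost its call with no filter (adjusted p = 0.0719) and without UDCA replicate 2 (0.0798), control replicate 2 (0.0516) or control replicate 3 (0.0664). PARP12, a relative of PARP14, rose 8.93-fold to 29.4 ± 0.0643 FPKM with UDCA, against 3.29 ± 0.211 FPKM in control. APOL6 rose 7.58-fold to 22.3 ± 0.641 FPKM with UDCA, against 2.95 ± 0.0123 FPKM in control. NMI, a binding partner of IFI35, rose 4.24-fold, and the antiviral ligase gene TRIM22 rose 3.78-fold. TRIM5 averaged 6.57 ± 0.971 FPKM with UDCA and 6.23 ± 0.626 FPKM in control, and TRIM14 averaged 7.17 ± 0.197 and 7.13 ± 0.201 FPKM.

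**Figure D5:**
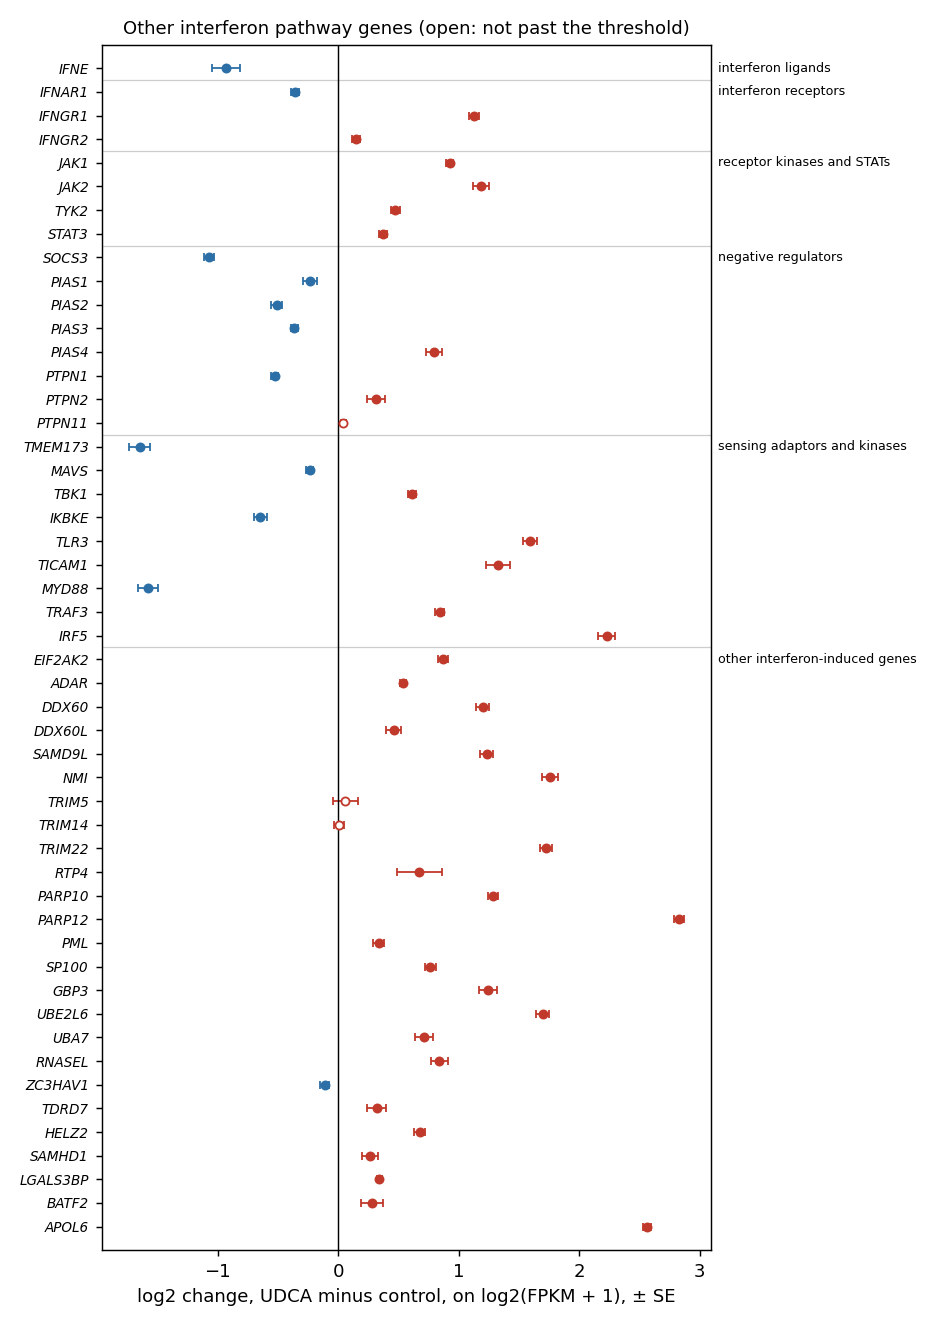
Log2 change (UDCA minus control, on log2(FPKM + 1), ± SE) of tested interferon pathway genes outside the 47 members, in blocks by role; filled points passed an adjusted p of 0.05 and open points did not. PARP12 at 2.83 and APOL6 at 2.56 lie furthest right, and TMEM173 at -1.65 lies furthest left.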

How the data were processed

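Polyadenylated RNA was sequenced from 6 libraries, as the labels' protocols state. HISAT2, Bowtie2 2.0.6 and GRCh38 are credited to the submitters' processing notes, which state no role for them. The sources used here do not state how reads were counted or with which strand setting. In the table that the authors deposited there is 1 value per gene and library, whose unit is not named and was read from the values as FPKM. Times the merged exon length of GENCODE 29, 100% of values in each library are whole reads within a tolerance of 0.01. Coordinates equal those of GENCODE 29 for 33873 of 33890 genes.

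The 14380 genes that reached 1 FPKM in 3 or more libraries were tested with limma-trend (limma 3.58.1, R 4.3.3) on log2(FPKM + 1), which understates changes of low genes, with group as the only term; p-values were 2-sided, adjusted by Benjamini-Hochberg across those genes and called under 0.05. Folds are ratios of mean FPKM. The test was checked on simulated reads. Alternatives were quantile normalization, median-ratio scaling, totals without mitochondrial genes, no filter, a pseudocount of 0.1, limma voom on the recovered reads, a replicate block and leaving out each library. A count of 3 reads in 1 kb is 0.169 to 0.188 FPKM.

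Between replicates, chi-square over its degrees of freedom was 1.67 to 2.73, above sampling noise. The 47 members and all lists were chosen with earlier results of these data known. All members are named; other pathway genes are named by size of change (up to 4 called genes per list with at least 2 FPKM) or, for ligands, receptors, kinases and STATs, whenever tested, except items not reported here, and others where a small count needed its members named. Python 3.11.15, pandas 2.3.3 and matplotlib 3.10.9 made tables and plots.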

Additional observations from a re-analysis of the deposited data

How the results depend on the processing

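Of the 36 tested members, 31 kept their direction and their call in each of the 13 alternatives, 17 higher and 14 lower. The other 5 (IRF7, IFIT5, BST2, PLSCR1 and SP110) kept their direction in each alternative and lost the call in at least 1. The median change of the tested members, 0.26, was 0.22 with quantile normalization, 0.18 with median-ratio scaling, 0.31 with a pseudocount of 0.1, 0.31 with voom on recovered reads, and 0.16 over all 47 members with no filter on low values; leaving out 1 library gave 0.19 to 0.30. The median of all genes tested, 0.10, moved too. It was 0.06 with quantile normalization, 0.02 with median-ratio scaling, and 0.11 with a pseudocount of 0.1 and with voom. Over all 33890 genes with no filter it was 0.0019. Median-ratio scaling called 31 members, 17 higher and 14 lower, beside 5945 genes higher and 5657 lower of all 14380 tested. With no filter 38 of 47 members were called, beside 42.6% of all 33890 genes. Of those 38, 4 are not tested with the filter (IRF9, CMPK2 and IFI27 lower, XAF1 higher). Deviations of libraries that share a replicate number between the groups correlated at 0.0143, -0.00119 and 0.00725 across genes. Whether the libraries were paired cannot be decided from such values, because counting noise enters each deviation. With the replicate number as a block 34 of 36 members were called, PLSCR1 (adjusted p = 0.0594) and SP110 (0.0507) being lost, and 11503 genes in all. Among genes that did not pass, the log2 sign turned for PTPN11 (-0.0450 with median-ratio scaling, -0.000429 with totals without mitochondrial genes), TRIM5 (-6.66e-05 with quantile normalization, -0.0176 with median-ratio scaling, -0.0406 to 0.131 leaving out 1 library) and TRIM14 (-0.0614 with quantile normalization, -0.0728 with median-ratio scaling, -0.0329 with totals without mitochondrial genes, -0.0109 to 0.0266 leaving out 1 library). The cause was not tested. The 11 members not tested were left out by the level filter, at or under 1.12 FPKM in every library.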
